A study of Drosophila melanogaster with 59 samples.

Results

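Small nuclear RNA (snRNA) genes of Drosophila melanogaster were followed in long RNA of adult male heads and of unfertilized eggs. Members were all genes whose FlyBase symbol begins with snRNA:, and the prefix is left out below. The name table holds 32 such symbols, and 31 of them have a row among the 17558 genes of the deposited tables, while 7SKb was not analysed here. The 31 genes are 5 of U1, 6 of U2, 3 of U4, 7 of U5, 3 of U6, 1 each of U7, U11, U12, U4atac and U6atac, 7SKa, and LU, to which no role is given here. Of these, 28 are shorter than the 200 nt above which the labels place long RNA. The exceptions are 7SKa at 444 nt, U11 at 275 nt and U12 at 238 nt. U6, U6atac, U7, U5:14B, U5:63BC and LU are, by their annotated lengths, also shorter than the sequencing read.

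Head and egg libraries came from 4 lines, with 2 libraries per line and tissue. Red*, White* and Fab2L carry w[1118] with the Fab2L transgenic insertion, which holds the mini-white eye color reporter, and Red* and White* are lines derived from Fab2L. The line w1118 carries w[1118] with no transgene. All 4 lines, controls included, are therefore white mutants, and all are in an Oregon-R background. Head donors were males 4 days old. Nothing in the labels says that libraries of 1 line came from separate collections of flies, so p-values measure only how far these libraries lie apart, a spread that may be technical. For eggs the titles were followed, although their extraction protocol speaks of male heads. The 2 Red* egg libraries are numbered one way by their titles and the other way by the names of the deposited tables, and the titles' numbers are used below.

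Spliceosomal snRNAs are the RNA cores of particles that remove introns. In the major spliceosome U1 pairs with the start of the intron, U2 with the branch point, and U4, U5 and U6 join as a tri-snRNP in which U6 forms the catalytic centre. U11, U12, U4atac and U6atac fill the matching places in the minor spliceosome, which removes a rare class of introns and shares U5. U7 guides the cleavage of histone mRNA ends, and 7SK holds the elongation factor P-TEFb in an inactive particle. Most snRNAs are made by RNA polymerase II with the help of the Integrator complex, whereas U6, U6atac and 7SK are made by RNA polymerase III.

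Values are FPKM, reads per 1 kb of gene scaled by the authors with a size factor for each library. Depth was 13491839 to 36603385 recovered reads in heads and 27823551 to 35638108 in eggs. In heads Red* and w1118 were sequenced more deeply than White* and Fab2L, so depth and line cannot be told apart there except within the pairs White* and Fab2L, and Red* and w1118. The authors' scaling divides by size factors set separately within heads and within eggs, so a level in heads and one in eggs do not share a scale. Neuronal and eye markers separated the tissues: ninaE, the main rhodopsin, lay at 7379 to 11021 FPKM in heads and 0.762 to 7.06 in eggs, while the maternal gene osk lay at 0.0274 to 0.486 in heads and 418 to 525 in eggs. The 4 eggshell genes read as follicle cell markers stayed at or below 0.434 FPKM in every library. Fat body markers summed to 47.5 to 97.4 FPKM in Red*, White* and Fab2L heads, against 440 and 674 in w1118 heads. The part of these genes in the head results was not tested. In bulk RNA, fewer cells of a type and less RNA per cell cannot be told apart.

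The snRNAs spanned more than 3 orders of magnitude in level, with 7SKa on top. In heads 7SKa lay at 9229 to 18852 FPKM, and by its mean over libraries U2:34ABb came next, at 4039 to 7948. U2:34ABa, U2:38ABa and U2:14B followed, with U11 at 697 to 2777 and U1:21D at 969.9 to 1889 after them, and the ranges of these overlapped. Within the other classes the highest head copies were U4:39B at 346 to 704, U6:96Aa at 33.2 to 66.8 and U5:63BC at 14 to 35.6 FPKM. U12 lay at 142 to 255 and U4atac at 14.4 to 31.8 FPKM in heads. In eggs 7SKa again led at 5271 to 7931 FPKM, with U2:14B at 812 to 3109.9, U11 at 623 to 1884, U1:95Cb at 270.3 to 1065 and U12 at 350.3 to 636. The top egg copies of the remaining classes were U4:39B at 20.2 to 44.6, U5:23D at 4.15 to 13.3 and U6:96Ab at 4.67 to 9.83 FPKM. Since most of these RNAs are shorter than the stated size limit, a level here is what passed that limit and not the cell's content. U4, U5 and U6 act in 1 particle, and U5 and U6 lay far below U4:39B in heads.

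**Figure D1:**
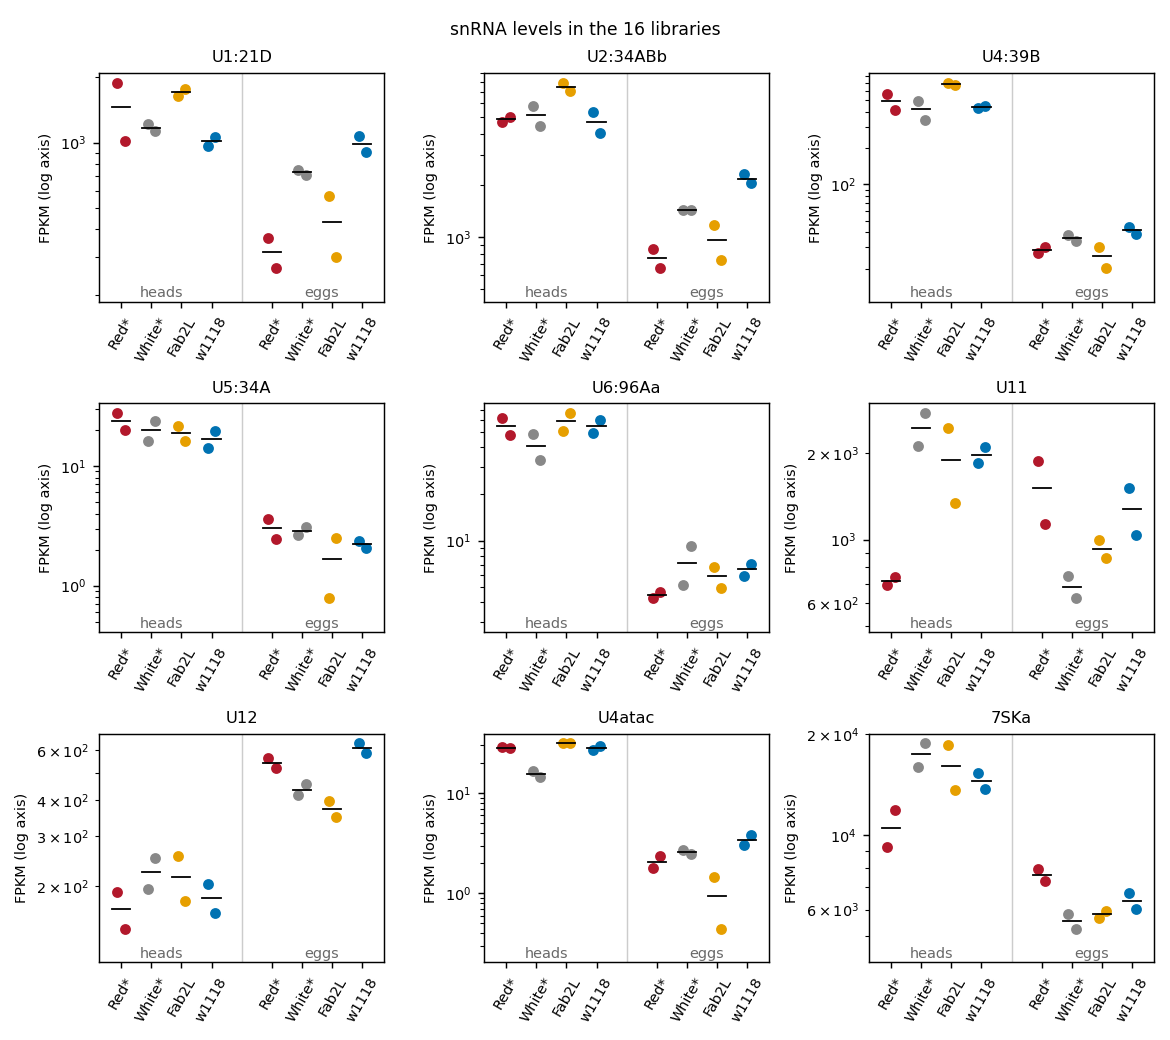
FPKM (log axis) of 9 snRNA genes in the 16 libraries: points are libraries, bars are means of the 2 libraries of a line, heads on the left and eggs on the right of each panel. U11 lies at 697 and 739 FPKM in Red* heads, below all other head libraries, and U4atac at 16.6 and 14.4 in White* heads.

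Summed over members, snRNA genes took 0.759% to 1.32% of library reads in heads and 0.375% to 0.585% in eggs. 7SKa alone made up 55.8% to 71.8% of the snRNA reads in heads and 48.6% to 74.2% in eggs. U2 followed with 16.5% to 30.7% in heads and 12.9% to 35.0% in eggs, and U1 with 3.86% to 10.4% and 2.68% to 7.55%. U12 stayed below U11, at 0.400% to 0.619% against 2.48% to 6.56% of snRNA reads in heads. Reads that fit several copies may be counted at each of them, which these files do not tell.

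Some members could not be read as single genes. U1:21D and U1:95Cb had values within 1.83% of each other in all 16 libraries, and U2:14B and U2:38ABa within 0.859%. The 3 U6 genes, which stand together within 1234 bases of chromosome 3R (dm6, 24556088 to 24557321), had 51, 51 and 50 reads in White* head library 2. Each such group is counted gene by gene in the counts below, but is uncertain as separate genes. U1:95Ca, U2:34ABc and U4:25F were listed at 0 in all 16 libraries. U2:34ABc lies within the span of asRNA:CR45330 and U4:25F overlaps lncRNA:CR44794. U6atac, the catalytic RNA of the minor spliceosome, had at most 1 read in any library, and LU lay at 0 to 0.894 FPKM.

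Members stand in groups on the chromosomes. On 2L, U4:38AB, U5:38ABa, U2:38ABb, U2:38ABa and U5:38ABb lie within 5807 bases (dm6, 19810734 to 19816540), all inside the span of the gene sick. Neighbours there had unlike levels: U2:38ABa lay at 1758 to 3529 FPKM in heads, U2:38ABb at 24.3 to 45.8 and U5:38ABa at 2.16 to 6.93. U11 (3L, 3893056 to 3893330) lies within the span of Fie, U12 (3L, 16653769 to 16654006) within Baldspot and U4atac (3R, 5195004 to 5195163) within cno. Whether these stretches are exonic or intronic in the host was not looked up, since the table used gives spans only.

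Between tissues, 25 of the 26 members above the FPKM filter differed between heads and eggs, of which 21 were higher and 4 lower in heads. Of all 11405 genes tested 97.4% were called, 57.6% higher and 39.8% lower in heads, so nearly every gene passes this test. The median log2 fold change, heads over eggs, was 1.24 over the members and 0.77 over all genes. Other short non-coding RNAs were mostly higher in heads too. Of 205 snoRNA, signal recognition particle, RNase P and RNase MRP genes tested, 193 were called higher in heads and 5 lower. Their median was 2.29, above that of the members. These genes were chosen after the values were seen, and the part of this shared movement in the member results was not tested. Calls are from limma on log2(FPKM + 1) with Benjamini-Hochberg adjustment over all genes tested. With 1 scaling over all 16 libraries by the median ratio, the median of all genes moved by 0.75 on the log2 scale, and the fold changes of the 26 members by 0.26 to 0.93, and 21 members were called higher and 1, U12, lower in heads.

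Among the major spliceosomal RNAs U4:39B gave the largest fold change, while the other U4 copy tested, U4:38AB, lay below U5:63BC. The scale understates the change of genes near 1 FPKM, and U5:63BC lay at 0 to 2.95 FPKM in eggs. U4:39B had 562 and 418 in Red*, 497 and 346 in White*, 704 and 670.2 in Fab2L and 429 and 452 in w1118 heads (FPKM), against 26.8 and 30.1 in Red*, 38.3 and 34 in White*, 30.3 and 20.2 in Fab2L and 44.6 and 38.9 in w1118 eggs. No head library came near an egg library, and heads over eggs gave a log2 fold change of 3.91 ± 0.10 (SE; adjusted p = 6.3e-13). U4:38AB gave 2.95 ± 0.09, and the 3 U6 genes 2.82 to 2.93, on the same scale. In U5 the copies parted: U5:63BC at 3.24 and U5:34A at 2.61 were higher in heads, U5:14B at -0.70 was lower, and U5:23D at -0.33 was not called (adjusted p = 0.136). U5:35D, U5:38ABa and U5:38ABb were called higher in heads at 0.83, 1.71 and 1.41. U5:14B rests on 0 to 5 reads in head libraries and 1 to 9 in egg libraries. With 1 scaling over all libraries neither U5:14B at -0.35 nor U5:23D at 0.45 was called (adjusted p = 0.124 and 0.0575).

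The minor spliceosomal RNAs differed among themselves. U4atac, the partner of U6atac, was 3.08 ± 0.10 log2 units higher in heads, and U11 was 0.61 ± 0.15 higher, or 1.53 with 1 scaling over all libraries. U12, the branch point RNA of that spliceosome, had 191 and 142 in Red*, 196 and 251 in White*, 255 and 178 in Fab2L and 203 and 161 in w1118 heads (FPKM), against 565 and 518 in Red*, 418 and 455 in White*, 396 and 350.3 in Fab2L and 636 and 586 in w1118 eggs. On the deposited scale all 8 head libraries lay below all 8 egg libraries, with a log2 fold change of -1.31 ± 0.10 (SE; adjusted p = 2.96e-08). With 1 scaling over all libraries the U12 value was -0.39, still called (adjusted p = 0.00208). As a ratio within a library, which does not depend on the scaling, U11 stood at 3.65 to 13.0 times U12 in heads and 1.37 to 3.33 times in eggs. 7SKa was 1.19 ± 0.10 log2 units higher in heads. U7 was 2.38 ± 0.18 higher, on 3 to 28 reads in head libraries and 0 to 4 in egg libraries.

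**Figure D2:**
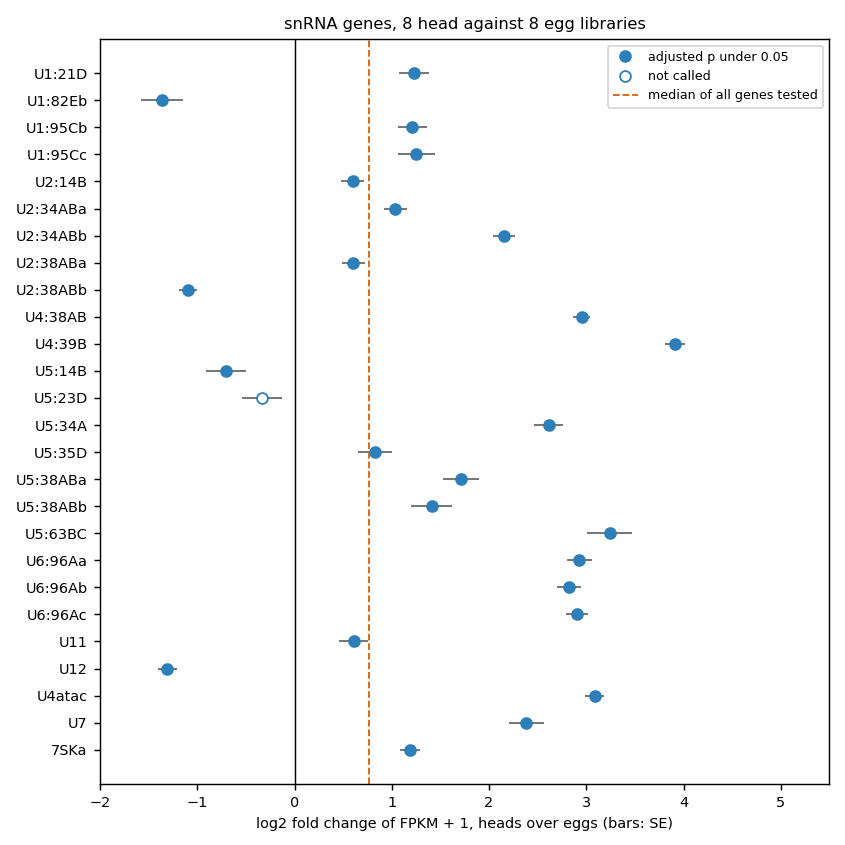
log2 fold change of FPKM + 1, 8 head over 8 egg libraries, for the 26 snRNA genes above the filter, with SE bars; filled points are called and the dashed line is the median of all genes tested (0.77). U4:39B lies farthest right at 3.91, while U1:82Eb, U12, U2:38ABb and U5:14B lie below 0 and were called.

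Copies of U1 and of U2 stood in unlike proportions in the 2 tissues. These ratios were chosen after their values were seen, carry no test and do not depend on the scaling between tissues. U1:82Eb stood at 2.34% to 4.74% of U1:21D in the 8 head libraries and 16.3% to 35.5% in the 8 egg libraries. U2:34ABb stood at 2.10 to 2.33 times U2:34ABa in heads and 0.954 to 1.08 times in eggs. U2:38ABb stood at 1.08% to 1.60% of U2:38ABa in heads and 3.76% to 5.53% in eggs. In each of these 3 ratios no head library overlapped an egg library in any line. U1:95Cc, by contrast, stood at 32.0% to 49.5% of U1:21D in heads and 31.8% to 49.1% in eggs, with the ranges overlapping.

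**Figure D3:**
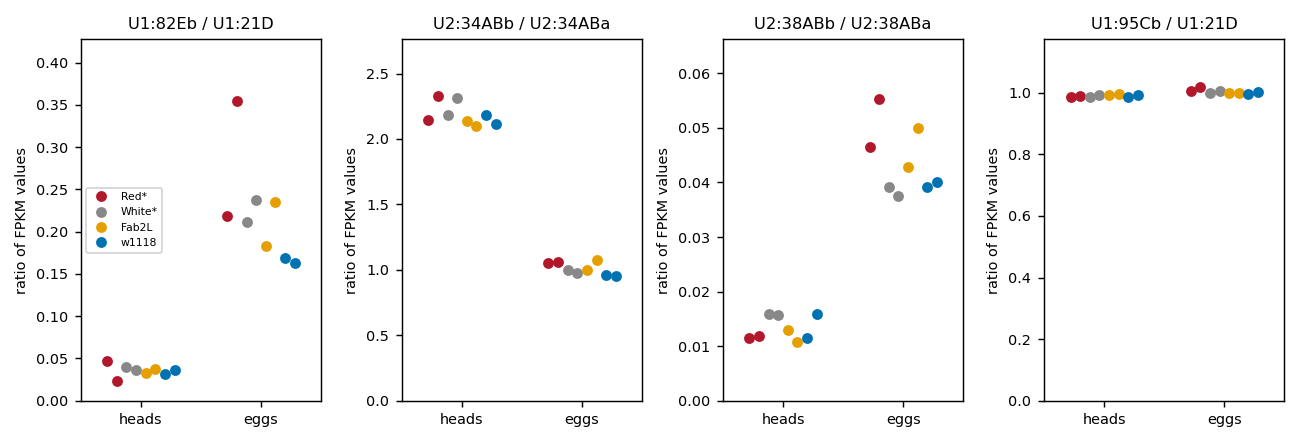
Ratio of the FPKM values of 2 copies of 1 snRNA class in each of the 16 libraries, heads left and eggs right, coloured by line. U1:82Eb over U1:21D reaches at most 0.0474 in heads and at least 0.163 in eggs, U2:34ABb over U2:34ABa falls near 2 in heads and near 1 in eggs, and U1:95Cb over U1:21D stays near 1 in both.

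Between Red* and White* heads, 2 of 25 members tested were called, U11 lower and U4atac higher in Red*, against 3.87% of all 11119 genes, 3.02% lower and 0.845% higher. The comparison sets apart 2 lines that share the Fab2L transgene and differ in eye color. The median log2 fold change was 0.24 over the members and 0.00 over all genes. Both called RNAs belong to the minor spliceosome. U11, which recognises the start of its introns, had 697 and 739 in Red*, 2130.5 and 2777 in White*, 2462 and 1346 in Fab2L and 1849.9 and 2100.5 in w1118 heads (FPKM). Both Red* libraries lay below the other 6, w1118 of like depth included, and Red* averaged 718 ± 29.8 against 2454 ± 457 FPKM in White* (SD, n = 2 each). This gave a log2 fold change of -1.76 ± 0.28 (SE; adjusted p = 0.0269). U4atac had 28.8 and 28.1 in Red*, 16.6 and 14.4 in White*, 31.6 and 31.8 in Fab2L and 27.2 and 29.9 in w1118 heads (FPKM). Here White* lay apart, below the other 3 lines, and Red* over White* gave a log2 fold change of 0.84 ± 0.09 (SE; adjusted p = 0.0106).

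Both calls were fragile to single libraries. The U11 call needed both White* libraries and Red* library 1, with adjusted p up to 0.161 when 1 was left out, and was also lost with no FPKM filter. The U4atac call was lost without Red* library 1 or White* library 2 (adjusted p up to 0.0768). Neither changed sign. Red* heads held 120 and 172 reads on U4atac, against 44 and 33 in White* heads, where depth was also lower. The host genes were not called: Fie gave -0.05 ± 0.10 (SE; adjusted p = 0.809) and cno 0.10 ± 0.10 (SE; adjusted p = 0.569), log2 fold changes of Red* over White* heads.

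U12 and 7SKa were not called between Red* and White* heads. U12 gave a log2 fold change of -0.43 ± 0.23 (SE; adjusted p = 0.301), and the Red* values of 191 and 142 FPKM lay below the White* values of 196 and 251. 7SKa had 9229 and 11855 in Red*, 15977 and 18852 in White*, 18556 and 13618 in Fab2L and 15359 and 13755 in w1118 heads (FPKM), with both Red* libraries below the other 6, and a log2 fold change of -0.73 ± 0.29 (SE; adjusted p = 0.193). Within a library, U11 stood at 3.65 and 5.20 in Red*, 10.9 and 11.0 in White*, 9.67 and 7.58 in Fab2L and 9.12 and 13.0 in w1118 heads, as a ratio to U12. Both Red* ratios lay below the other 6. As a ratio to 7SKa, U11 stood at 0.0755 and 0.0623 in Red* heads and at 0.0988 to 0.153 in the other 6 head libraries.

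Red* over Fab2L heads gave 0 called members of 25 by limma, with 8 at an unadjusted p under 0.05, against 2.25% of all genes called, 1.87% lower and 0.378% higher. limma-voom on recovered reads called 1, with no share of all genes given for that setting. U11 gave a log2 fold change of -1.34 ± 0.28 (SE; adjusted p = 0.0612), and the 2 Fab2L libraries differed widely, at 2462 and 1346 FPKM. The median over members was -0.30, against 0.01 over all genes. White* over Fab2L heads, a pair of like depth, gave 1 called member of 25, U4atac with a log2 fold change of -0.99 ± 0.09 (SE; adjusted p = 0.0147), where 0.117% of all genes were called, 0.027% lower and 0.0899% higher. White* averaged 15.5 ± 1.60 FPKM and Fab2L 31.7 ± 0.129 (SD, n = 2 each). That call was lost whenever 1 of the 4 libraries was left out, with adjusted p of 0.0840 to 0.175, and was made neither by limma-voom (adjusted p = 0.403) nor with the replicate number as a block (adjusted p = 0.0539). The member median there was -0.52, against 0.00 over all genes.

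Fab2L over w1118 heads, which compares flies with and without the transgene, gave 1 called member of 25, against 6.63% of all genes, 3.51% higher and 3.12% lower. This was U1:95Cc, which had 760.0 and 808 in Fab2L and 449.5 and 339 in w1118 heads (FPKM). The groups did not overlap, with a log2 fold change of 1.00 ± 0.23 (SE; adjusted p = 0.0441), and the call was lost when any 1 of the 4 libraries was left out (adjusted p 0.0528 to 0.228). Of the 25 members 21 had a fold change above 0, with a median of 0.23, against -0.01 over all genes. U2:14B, for example, gave a log2 fold change of 0.76 ± 0.21 (SE; adjusted p = 0.0766). limma-voom on recovered reads called 5 members here, with no share of all genes given for that setting.

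In eggs more members were called. Red* over White* eggs called 13 of 23, of which 10 were lower and 3 higher in Red*, where 44.2% of all 6682 genes were called, 22.7% lower and 21.5% higher. The 10 lower were the 4 U1 genes tested, the 5 U2 genes tested and U6:96Ac. The 3 higher were U11, U12 and 7SKa. The median was -0.54 over the members and -0.02 over all genes. Without White* egg library 2 only U1:82Eb was still called, at an adjusted p of 0.0487, while the other 12 kept their sign and lay at adjusted p of 0.0560 to 0.145.

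U1 and U2 moved together in eggs. U1:21D had 367 and 265 in Red*, 750.5 and 714 in White*, 569 and 298 in Fab2L and 1069 and 909 in w1118 eggs (FPKM). Red* and Fab2L lay low and White* and w1118 high, and Red* over White* gave a log2 fold change of -1.23 ± 0.27 (SE; adjusted p = 0.00976). U2:14B had 1024 and 812 in Red*, 1815 and 1921 in White*, 1459 and 856 in Fab2L and 3109.9 and 2743 in w1118 eggs (FPKM), with the same order of lines. Red* over White* gave a log2 fold change of -1.03 ± 0.22 (SE; adjusted p = 0.00886). U1:82Eb, the copy with a higher share in eggs, gave -0.91 ± 0.18, and U1:95Cc -1.48 ± 0.40. U2:38ABb gave the smallest fold change of the U2 genes, at -0.62 ± 0.15. U6:96Ac, at -0.65 ± 0.20, was called while its near-equal copies U6:96Aa and U6:96Ab were not (adjusted p = 0.0812 and 0.0820), on 15 to 32 reads each.

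The 3 RNAs higher in Red* eggs are the 3 members longer than 200 nt. U11 had 1884 and 1138 in Red*, 745 and 623 in White*, 998 and 861 in Fab2L and 1517 and 1038 in w1118 eggs (FPKM). Red* lay above White* without overlap, with a log2 fold change of 1.10 ± 0.25 (SE; adjusted p = 0.0104), while Red* library 2 lay within the range of w1118. U12 averaged 541 ± 33.7 FPKM in Red* and 436 ± 25.9 in White* eggs (SD, n = 2 each), with a log2 fold change of 0.31 ± 0.08 (SE; adjusted p = 0.0206). 7SKa had 7931 and 7319 in Red*, 5817 and 5271 in White*, 5685 and 5966 in Fab2L and 6744 and 6010.3 in w1118 eggs (FPKM), with Red* above all other egg libraries, and a log2 fold change of 0.46 ± 0.10 (SE; adjusted p = 0.00747). The 20 shorter members tested had a median of -0.63, with 10 called lower and 0 higher. The part of RNA length in these results was not tested. Fie, the host of U11, was also called here, at 0.30 ± 0.09 (SE; adjusted p = 0.0348), as were 44.2% of all genes. Fie lay at only 1.06 to 1.91 FPKM in egg libraries, near the filter of 1 FPKM and far below U11. Whether the host and U11 moved together was not tested.

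Other short non-coding RNAs moved in eggs as well. They were chosen for this after the values were seen. 7SLRNA:CR32864, the RNA of the signal recognition particle at 299 nt, had 45361 and 41933 in Red*, 68472 and 93532 in White*, 77703 and 46564 in Fab2L and 133906 and 116158 in w1118 eggs (FPKM). Red* lay below every other egg library and w1118 above, and Red* over White* gave -0.88 ± 0.25 (SE; adjusted p = 0.0253) on the log2 scale. RNase MRP RNA, at 382 nt, gave -0.77 ± 0.17 (SE; adjusted p = 0.00929). Of 60 snoRNA, 7SL, RNase P and RNase MRP genes tested in eggs, 0 were called higher and 26 lower in Red* than in White*, with a median of -0.68. Fab2L over w1118 eggs called 3 of these 60 higher and 22 lower, with a median of -0.56. The part of this shared movement in the U1 and U2 results was not tested.

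**Figure D4:**
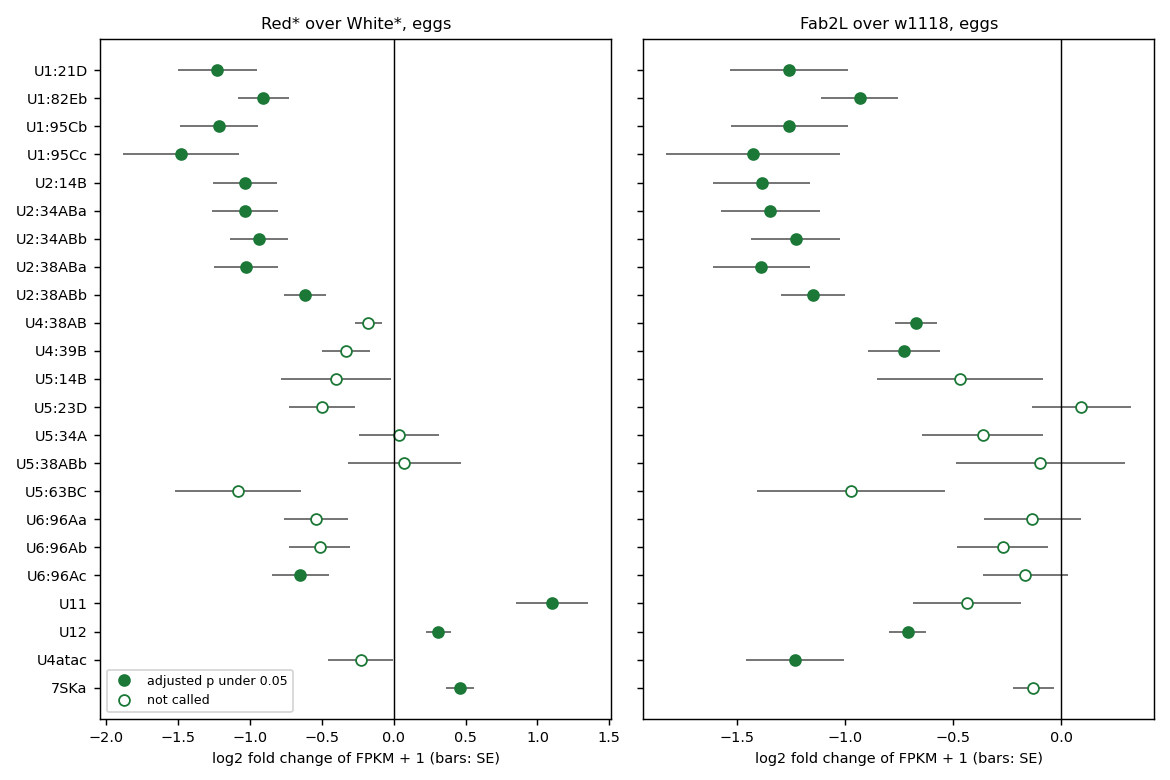
log2 fold change of FPKM + 1 in eggs, Red* over White* (left) and Fab2L over w1118 (right), for the 23 snRNA genes above the egg filter, with SE bars; filled points are called. U1 and U2 genes lie below 0 in both panels, while U11, U12 and 7SKa lie above 0 in the left panel only.

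Fab2L over w1118 eggs called 13 of 23 members, all lower in Fab2L, where 29.1% of all genes were called, 14.4% lower and 14.6% higher. They were the 4 U1 and 5 U2 genes tested, U4:39B, U4:38AB, U12 and U4atac. The member median was -0.73, against 0.00 over all genes. U2:34ABb, for example, had 1177 and 740.1 in Fab2L and 2333 and 2054 in w1118 eggs (FPKM), with a log2 fold change of -1.23 ± 0.20 (SE; adjusted p = 0.00333). U12 had 396 and 350.3 in Fab2L and 636 and 586 in w1118 eggs (FPKM), with a log2 fold change of -0.71 ± 0.08 (SE; adjusted p = 0.000614). U4:39B gave -0.73 ± 0.17, a call lost without w1118 library 1 (adjusted p = 0.0845). U1:21D, U1:95Cb and U1:95Cc were also lost without that library, and U1:95Cc without Fab2L library 2 or w1118 library 2 as well. U11 and 7SKa were not called (adjusted p = 0.233 and 0.358).

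U4atac was lowest in Fab2L eggs, on few reads. It had 1.78 and 2.34 in Red*, 2.69 and 2.46 in White*, 1.45 and 0.445 in Fab2L and 3.02 and 3.85 in w1118 eggs (FPKM). Its reads numbered 10 and 12 in Red*, 14 and 12 in White*, 7 and 2 in Fab2L and 16 and 21 in w1118 eggs. Fab2L over w1118 gave a log2 fold change of -1.23 ± 0.23 (SE; adjusted p = 0.00519). White* over Fab2L eggs called 4 of 23 members, all higher in White*, where 15.4% of all genes were called, 6.57% higher and 8.87% lower. They were U4atac (0.93 ± 0.23), U4:38AB (0.65 ± 0.10), U1:82Eb (0.93 ± 0.18) and U5:23D (1.02 ± 0.23). The count ran from 0 without White* library 2 to 11 without Fab2L library 1, and with the replicate number as a block it was 12. The member median was 0.63, against 0.01 over all genes.

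Red* over Fab2L eggs called 3 of 23 members, all higher in Red*, where 23.7% of all genes were called, 12.6% higher and 11.1% lower. U12 had 565 and 518 in Red* and 396 and 350.3 in Fab2L eggs (FPKM), with a log2 fold change of 0.54 ± 0.08 (SE; adjusted p = 0.00651). 7SKa gave a log2 fold change of 0.39 ± 0.10 (SE; adjusted p = 0.0261), a call lost without Red* library 1, Fab2L library 1 or Fab2L library 2. U4:38AB gave a log2 fold change of 0.48 ± 0.10 (SE; adjusted p = 0.0143) on 16 and 15 reads in Red* and 8 and 9 in Fab2L, a call lost without Red* library 2 or Fab2L library 1. Under limma-voom, on the reads themselves and scaled to library totals, no U4:38AB call in eggs passed. There the adjusted p was 0.113 for Red* over Fab2L, 0.129 for White* over Fab2L and 0.0898 for Fab2L over w1118. The member median was -0.15, against -0.01 over all genes. Without Fab2L library 2 the count was 7, and with reads scaled plainly to the library total it was also 7. The comparisons that share Fab2L or Red* libraries are not independent of each other.

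Red* against White* differed between heads and eggs for 10 of 26 members, where 25.2% of all genes were called, 10.3% positive and 14.9% negative. This tests the log2 fold change in heads minus that in eggs, so the separate scaling of the tissues largely drops out. It does not do so fully on log2(FPKM + 1): with 1 scaling over all libraries the median of all genes moved by 0.10 in this difference. U11 gave the largest difference, a log2 fold change of -2.86 ± 0.42 (SE; adjusted p = 0.000874), since it was lower in Red* heads and higher in Red* eggs than in White*. This call held when any 1 of the 8 libraries was left out. 7SKa gave a log2 fold change of -1.19 ± 0.30 (SE; adjusted p = 0.0137), lost without White* egg library 2. The other 8 were positive: 3 U1 genes, U2:14B, U2:38ABa, U6:96Ac, U5:23D and U4atac, at 1.01 to 1.75. With 1 of the 8 libraries left out, U4atac was still called in 7 of 8 cases, U6:96Ac in 3 and the other 6 in 2 each. Under the 7 other settings U1:21D and U1:95Cb were called in all 7, U4atac in 4, U1:95Cc in 3, U2:14B, U2:38ABa and U6:96Ac in 2 each and U5:23D in 1. CG34355, whose span holds U1:95Cb and U1:95Cc, was also called, at 0.43 ± 0.09 (SE; adjusted p = 0.00676). It lay below the filter in eggs, at 0.150 to 0.613 FPKM, and gave 0.19 ± 0.07 in heads (SE; adjusted p = 0.180). The hosts cno of U4atac and sick of U2:38ABa were not called (adjusted p = 0.396 and 0.750). Since sick lay at 0 to 0.0157 FPKM in eggs, its difference could show only a change in heads. Among 205 snoRNA, 7SL, RNase P and RNase MRP genes, 15 were called positive and 0 negative, with a median of 0.25. The part of these in the member calls was not tested. U12 had the same signs as U11 in the 2 tissues, and its difference of -0.74 ± 0.27 was not called (adjusted p = 0.0678).

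**Figure D5:**
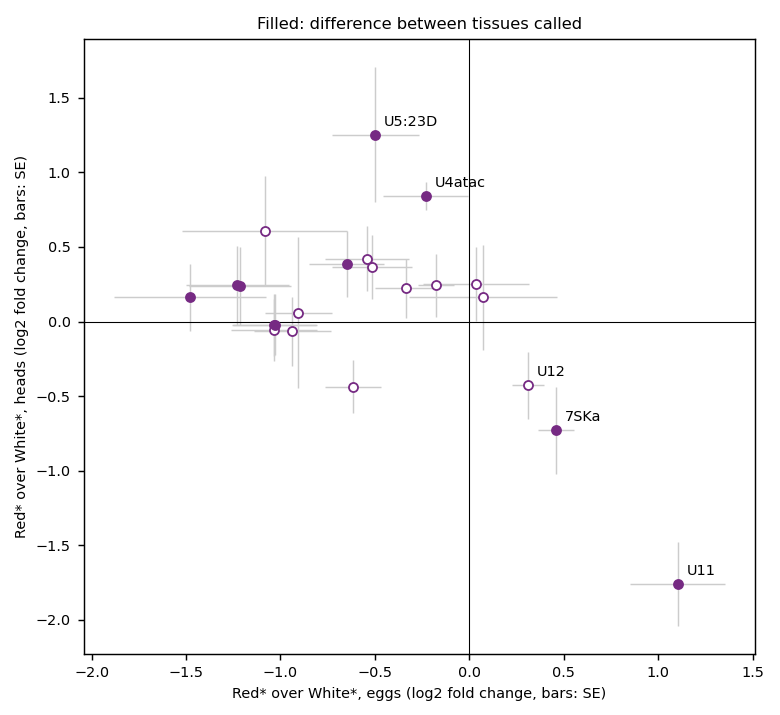
log2 fold change of Red* over White* in heads (vertical) against eggs (horizontal) for the 22 snRNA genes tested in both tissues, with SE bars; filled points are genes whose difference between tissues was called. U11 lies at -1.76 in heads and 1.10 in eggs, farthest from the rest.

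In the difference between tissues, U11 was also called for Red* against Fab2L, and U4atac for White* against Fab2L and Fab2L against w1118. Red* against Fab2L called 2 of 26 members (12.5% of all genes, 8.86% negative and 3.66% positive): U11 at a log2 fold change of -2.0 ± 0.42 (SE; adjusted p = 0.0126) and U4:38AB at -1.09. The U11 call was lost without Fab2L egg library 2 (adjusted p = 0.0544), and that of U4:38AB without Fab2L head library 2, Red* egg library 2 or Fab2L egg library 1, and under limma-voom. White* against Fab2L called 3 of 26 (2.49% of all genes, 0.973% negative and 1.52% positive), with U4atac at a log2 fold change of -1.92 ± 0.27 (SE; adjusted p = 0.00758), U4:38AB at -1.51 and U4:39B at -1.25. The U4atac call held under all 7 settings and with any 1 of the 8 libraries left out. That of U4:38AB was lost under limma-voom and without White* egg library 2, Fab2L egg library 1 or Fab2L egg library 2, and that of U4:39B held under 1 of 7 settings and in 2 of 8 cases with a library left out. Fab2L against w1118 called 12 of 26, all positive (12.5% of all genes, 6.49% positive and 6.04% negative), led by U1:95Cc at 2.43 and U2:38ABa at 2.15. Of these, U12 held under 2 of 7 settings and in 2 of 8 cases with a library left out. U4:39B was lost under limma-voom (adjusted p = 0.0967) and U1:95Cc without w1118 egg library 1 (adjusted p = 0.0502), while the other 9 held throughout.

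Protein genes that build and use these RNAs were counted from lists of 82 entries, of which 76 were tested. In heads against eggs they went the other way from most snRNAs: 2 were called higher and 74 lower in heads, with a median log2 fold change of -1.97. With 1 scaling over all libraries, 6 were called higher and 68 lower, with a median of -1.13, and all genes tested split into 8206 higher and 3228 lower. All 6 tested genes of the LSm ring, which binds U6, and all 9 tested of the SMN complex, cap and import list, which covers the assembly of the particles, were lower in heads under both scalings. All 7 genes of the Sm ring, which binds most snRNAs, and all 13 Integrator genes tested were lower on the deposited scale, but with 1 scaling SmD3 of the Sm ring and IntS1 and IntS6 of Integrator were called higher. The largest fold changes were those of icln, an assembly chaperone, at -4.97 ± 0.10 (SE; adjusted p = 4.39e-14), SmD1 at -4.95 ± 0.05 (SE; adjusted p = 4.25e-17) and SmF at -3.96 ± 0.06 (SE; adjusted p = 4.96e-15). The 2 higher in heads under both scalings were CycT, the cyclin of P-TEFb, and Bdp1, an RNA polymerase III factor.

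Between lines in heads, Red* over White* called 1 of these 76, where 3.87% of all genes were called. It was Sf3a2, a U2 particle protein, at -0.61 ± 0.11 (SE; adjusted p = 0.0338). Red* over Fab2L and White* over Fab2L heads called 0 by limma, with 7 and 5 at an unadjusted p under 0.05, where 2.25% and 0.117% of all genes were called. Fab2L over w1118 heads called 4 of 76, all lower in Fab2L, where 3.12% of all genes were called lower, among them CG9344 of the LSm ring at -1.53 ± 0.15 (SE; adjusted p = 0.00177), snRNP-U1-C at -0.59 ± 0.13 (SE; adjusted p = 0.0420) and SmD2 at -0.42 ± 0.09 (SE; adjusted p = 0.0332). CG9344 was lower in Fab2L eggs too, at -1.02 ± 0.08 (SE; adjusted p = 5.72e-05).

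In eggs listed genes were called in both directions. Red* over White* eggs called 20 of 76 higher and 11 lower, with a median of -0.01, where 21.5% of all genes were called higher and 22.7% lower. The largest were vls, a part of the methylosome, at 0.52 ± 0.08 (SE; adjusted p = 0.00209), SmB at 0.49 ± 0.08 (SE; adjusted p = 0.00327) and U4-U6-60K at 0.49 ± 0.06 (SE; adjusted p = 0.00130). The U2 particle list had 5 of 11 higher and 0 lower in Red* eggs, and the 7SK and P-TEFb list had 1 of 5 higher, bin3, the capping enzyme of 7SK, and 0 lower. Integrator had 6 of 13 higher and 3 lower. The tri-snRNP list had 3 of 8 higher and 1 lower, and the U1 particle list 1 of 3 higher and 0 lower. The LSm ring had 0 of 6 higher and 2 lower, and the SMN complex, cap and import list 2 of 9 higher and 3 lower. The Sm ring (7 tested) and the U7 histone mRNA processing list (8 tested) each had 1 higher and 1 lower. Fab2L over w1118 eggs called 9 of 76 higher and 10 lower, against 14.6% and 14.4% of all genes. Red* over Fab2L eggs called 9 higher and 6 lower, against 12.6% and 11.1%, and White* over Fab2L eggs 2 higher and 8 lower, against 6.57% and 8.87%. None of the 6 tested genes of the snRNA transcription factor list was called between Red* and White* in either tissue by limma (0 at an unadjusted p under 0.05 in each).

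The deposited lists of variants found in Red* or White* genomes were set against the members. Of 2635 listed SNPs and small insertions and deletions, 0 lay within 1000 bases of any of the 31 genes. The share of the genome in that window was not worked out, so this count cannot tell whether variants are rarer there than elsewhere. The nearest was a small deletion listed for White*, 4986 bases from U12. The nearest SNP listed for Red* lay 120374 bases from U11.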

How the data were processed

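Long RNA was sequenced single end after rRNA removal and with no poly(A) selection, per the labels' protocols. The authors deposited FPKM per gene. STAR 2.5, DESeq2 and build dm6 are named in the submitters' processing notes; the counting tool and its treatment of reads that fit several copies are not given in the sources used here. Multiplied by gene length, FPKM values fell on multiples of 1 step per library, and whole reads were recovered within 0.001 for 16155 of 16157 genes with a value; the length found equalled the annotated one in 96.0% of 573 small RNA genes and in 27 of the 28 members with reads. The FPKM denominators followed median-ratio size factors within 0.0154% in heads and 0.00975% in eggs, computed separately. Variant lists were deposited as positions, and only these positions were used. Small RNA was not used.

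Members were matched by symbol (17252 of 17558 identifiers had one), and the members and gene lists were chosen with earlier results of these data known. limma 3.58.1 (R 4.3.3, trend on) was fitted on log2(FPKM + 1), keeping genes that passed 1 FPKM in 2 or more libraries, on all 4 lines of a tissue, or on all 16 libraries for heads against eggs and for differences between tissues. Differences on this scale understate the change of genes near 1 FPKM. P-values were Benjamini-Hochberg adjusted over all genes tested, and below 0.05 was called; every adjusted p in the text is limma's. The fit was tested on simulated data, where the share of false calls ran above the nominal level. Alternatives were a pseudocount of 0.1, no filter, median-ratio rescaling, removal of the 20 most abundant genes and limma-voom on recovered reads. limma-voom scaled reads to library totals in place of the authors' size factors. Further alternatives were the replicate number as a block, each library left out and, chosen after seeing the data, plain scaling to the library total. Named were all called members, the single-copy members, the top copy of each class and at most 3 called protein genes per comparison; ratios between copies and other short RNAs were chosen after their values were seen. Replicates were compared for copies, and their chi-square per degree of freedom was 10.7 to 51.5, so none was a copy. Gene positions are those of the RefSeq table of the same assembly (Release 6). No sequences are shown, since no table of them was used here.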

Additional observations from a re-analysis of the deposited data

Results flagged for a closer look

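The differences below were picked out because the log2 fold change between 2 lines in heads, minus that in eggs, passed the adjusted threshold of limma's test of the difference. For Red* against White*, the minor spliceosomal U11 differed by -2.86 and 7SKa by -1.19. On the positive side stood U1:21D at 1.47, its near-equal copy U1:95Cb at 1.45 and U1:95Cc at 1.64. U2:14B stood at 1.01 and its near-equal copy U2:38ABa at 1.01. U6:96Ac stood at 1.03, U4atac at 1.07 and U5:23D at 1.75. U5:23D rests on 36 and 29 reads in Red* heads, 5 and 6 in White* heads, and 25 to 53 in the eggs of both lines. The calls of U5:23D and U6:96Ac were lost under most other settings (held in 1 and 2 of 7) and with most single libraries left out (held in 2 and 3 of 8). Among 205 snoRNA, 7SL, RNase P and RNase MRP genes tested for Red* against White*, 15 differences were called positive and 0 negative.

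For Red* against Fab2L, U11 differed by -2.0 and U4:38AB by -1.09. For White* against Fab2L, U4atac differed by -1.92, U4:38AB by -1.51 and U4:39B by -1.25. Both Fab2L pairs share the Fab2L libraries, in which U4:38AB held 8 and 9 reads in eggs. The U4:38AB calls of both pairs were lost under limma-voom, and the U4:39B call held in 1 of 7 other settings.

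For Fab2L against w1118, all 12 called differences were positive. U2:14B stood at 2.14, U2:38ABa at 2.15, U2:34ABa at 2.05, U2:34ABb at 1.92 and U2:38ABb at 1.70. U1:21D stood at 2.00, U1:95Cb at 2.01 and U1:95Cc at 2.43. U4:38AB stood at 1.52, U4:39B at 1.37, U4atac at 1.38 and U12 at 0.94. The U12 call held in 2 of 7 other settings and that of U4:39B was lost under limma-voom. Over all 205 snoRNA, 7SL, RNase P and RNase MRP genes tested, the median of the same difference was 0.38, with 21 called positive and 4 negative. Their part in these differences was not tested.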

How the results depend on the processing

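Counts of called snRNA genes moved with single libraries and with some settings, and the cause was not tested. Shares of all genes called are given for the main fit only. A change in a count below can therefore not be told from a change in calls over all genes. With 1 library left out, the count ran from 0 to 3 for Red* over White* heads (2 with all), 0 to 1 for Red* over Fab2L heads (0), 0 for White* over Fab2L heads (1) and 0 for Fab2L over w1118 heads (1). In eggs it ran from 1 to 14 for Red* over White* (13), 2 to 7 for Red* over Fab2L (3), 0 to 11 for White* over Fab2L (4) and 9 to 13 for Fab2L over w1118 (13). For heads against eggs it ran from 25 to 26 (25). For differences between tissues it ran from 2 to 10 for Red* against White* (10), 1 to 4 for Red* against Fab2L (2), 1 to 5 for White* against Fab2L (3) and 10 to 12 for Fab2L against w1118 (12).

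With no filter the count was 1 for Red* over White* heads, 0 for Fab2L over w1118 heads, 8 for Red* over White* eggs, 1 for White* over Fab2L eggs and 4 for the tissue difference of Red* against White*. limma-voom on recovered reads gave 1 for Red* over Fab2L heads, 0 for White* over Fab2L heads, 5 for Fab2L over w1118 heads, 9 for White* over Fab2L eggs and 6 for the tissue difference of Red* against White*. Removing the 20 most abundant genes, which takes 7SKa out of 2 results, gave 0 for Fab2L over w1118 heads, 9 for Red* over Fab2L eggs and 4 for that tissue difference. A pseudocount of 0.1 gave 5 for it. Plain scaling to the library total gave 7 for Red* over Fab2L eggs, 6 for the tissue difference of Red* against White* and 4 for that of Red* against Fab2L. It moved the median log2 fold change of all genes by 0.15 in Red* over White* eggs and by 0.12 in Red* over Fab2L eggs. Median-ratio rescaling kept all 13 counts within 1.5 times, but ended 4 of the 89 single calls, 3 of them lower in heads than eggs (U2:38ABb, U5:14B and U1:82Eb). No single call changed sign under any of these settings or with a library left out, where 649 of 764 stayed past the threshold.

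Between lines, deviations of same-numbered libraries correlated at -0.23 to 0.35 in heads, with both signs, and at -0.22 to 0.43 in eggs. Every egg correlation below 0 involved Red* (-0.22 with White*, -0.06 with Fab2L and -0.01 with w1118). These signs would turn with the other numbering of the Red* egg libraries, so a pairing in eggs cannot be judged from them. With the replicate number as a block, the count was 0 for White* over Fab2L heads, 12 for White* over Fab2L eggs and 7 for the tissue difference of White* against Fab2L, and the other 10 counts stayed within 1.5 times.

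Depth limits U4atac, U4:38AB, U5, U6 and U7 in eggs, where read numbers were low: egg libraries held 2 to 21 reads on U4atac, 8 to 20 on U4:38AB, 18 to 53 on U5:23D and 0 to 4 on U7. With 2 libraries per group, 1 library can decide a call. For the 28 members under the size limit of the libraries, the part of recovery was not tested. When a library is left out, the lone one of its line is assumed to vary like the others.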
